A study of Homo sapiens with 12 samples.

Results

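Keratins are the intermediate filament proteins of epithelial cells. The set described here holds 10 listed keratin genes, taken by symbol: KRT8, KRT18, KRT7 and KRT19 of simple epithelia, KRT5, KRT14, KRT15 and KRT17 of basal and stratified epithelia, KRT10 of suprabasal epidermis and the hair keratin KRT81. Of the 10 genes, 8 had a probe set that names 1 gene in the platform annotation, with 11 such probe sets in all, out of 11963 genes and 19064 probe sets. KRT17 and KRT81 were not analysed here. The annotation gave 1 probe set each for KRT5, KRT8, KRT14, KRT15, KRT18 and KRT19, 2 for KRT7 and 3 for KRT10.

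A keratin filament is built from heterodimers of a type II keratin (here KRT5, KRT7 and KRT8) and a type I keratin (KRT10, KRT14, KRT15, KRT18 and KRT19), and a keratin without a partner is degraded. KRT8 and KRT18 form the basic filament of simple epithelia, to which KRT7 and KRT19 are added in ducts and in most breast carcinomas. KRT5 and KRT14 form the filament of basal cells, in the breast that of the myoepithelial layer, and KRT10 replaces KRT14 as skin cells leave the basal layer. Type I genes lie in a cluster on chromosome 17 and type II genes in a cluster on chromosome 12, where KRT18 is the 1 type I gene, next to KRT8.

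Total RNA of MDA-MB-231, an established line from a human triple-negative breast carcinoma, was hybridised to 12 Affymetrix arrays, 3 labelled as biological replicates in each of 4 groups. The groups were cells carrying a scramble shRNA, cells carrying an shRNA against the histone demethylase LSD2 (KDM1B), cells carrying an eGFP/Flag vector and cells carrying an LSD2/eGFP/Flag vector. All had been stably transfected and kept in medium with 800 µg/ml G-418, which kills untransfected cells. Whether a group is 1 clone or a pool is not given in the sources used here, so groups differ as lines as well as by their construct, and p-values measure only the spread between these arrays.

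The values are log2 signals from RMA, deposited by the authors. Medians were 6.65 to 6.71 on the 6 shRNA arrays and 7.03 to 7.18 on the 6 vector arrays, and these sets of arrays were treated as normalized separately. Levels were therefore tested only within each set, and a further contrast compared the within-set differences. Levels set across the sets of arrays are given as the percentile of the probe set among all 22277 on its array. Both the contrast and these percentiles carry the limit of separate normalization. RMA gives no detection call, so values low on the array have no reliable order, and signals of different probe sets cannot be set against each other.

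The LSD2/eGFP/Flag arrays stood apart from the other 9. They correlated with the eGFP/Flag arrays at r of 0.916 to 0.920 over probe sets, against 0.992 to 0.995 between LSD2 shRNA and scramble arrays and 0.996 to 0.998 between arrays of 1 group. Of 12 genes known to be high in mesenchymal-like breast lines such as MDA-MB-231, 12 lay above percentile 80 in both shRNA groups, 11 in the eGFP/Flag group and 2 in the LSD2/eGFP/Flag group. Their mean log2 signal was 12.13 to 12.18 on the eGFP/Flag arrays and 6.80 to 7.03 on the LSD2/eGFP/Flag arrays. CD44 fell there from percentile 96.7 to 6.2, ANXA1 from 98.8 to 15.4 and AXL from 97.5 to 24.1, and VIM, still bright, from 99.7 to 97.6. All 12 were called lower in that comparison, and 0 higher, beside 26.1% and 30.9% of all genes. No probe set used here named KDM1B (0 probe sets), so the LSD2 labels could not be checked on their target. The LSD2/eGFP/Flag arrays may therefore hold RNA of another line than the labelled one. An effect of the vector and a difference of line cannot be told apart in any value of the vector comparison below, where arrays are called by their label. In RNA from a whole culture, fewer cells of a kind and less RNA per cell cannot be told apart.

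RefSeq promoter entries (GRCh38.p14) matched 3 of the 10 genes, KRT5, KRT8 and KRT10. The start site of the KRT8 entry lies inside the span of the gene and not at its end, so that window is not printed. KRT10 and KRT5 are shown because they part in the vector comparison below, where KRT10 fell and KRT5 did not pass the test. KRT5 lay only at percentiles 33.2 to 39.8 of the arrays, so its lack of a call does not show that it was unchanged. Each sequence is the 250 bases before the start site, 5′ to 3′ on the minus strand, with motif matches in capitals.
KRT10, chr17:40822615-40822864: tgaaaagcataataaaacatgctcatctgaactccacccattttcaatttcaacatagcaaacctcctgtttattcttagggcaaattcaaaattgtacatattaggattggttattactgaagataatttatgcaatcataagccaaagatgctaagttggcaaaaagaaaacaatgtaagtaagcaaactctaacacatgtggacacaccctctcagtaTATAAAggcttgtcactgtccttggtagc
KRT5, chr12:52520395-52520644: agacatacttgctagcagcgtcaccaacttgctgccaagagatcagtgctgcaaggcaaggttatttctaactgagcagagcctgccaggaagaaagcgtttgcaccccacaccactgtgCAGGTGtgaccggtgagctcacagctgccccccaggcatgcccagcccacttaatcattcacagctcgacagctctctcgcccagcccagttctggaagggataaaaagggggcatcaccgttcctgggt

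The motifs searched on both strands were the TATA box TATAAA, the GC box GGGCGG, the E-box CAGGTG that ZEB and SNAI repressors bind, and the AP-1 site TGANTCA. The KRT10 window held 1 match, TATAAA, whose first base lies at -29 from the start site. The KRT5 window held 1 match, CAGGTG, at -130. Of 35116 promoter windows of 250 bases, 10.7% held TATAAA, 42.6% GGGCGG, 17.5% CAGGTG and 6.57% TGANTCA. The KRT10 window had 34.8% G and C and 0 CpG, and the KRT5 window 56.0% and 6 CpG. A match describes the letters of the window, and binding was not measured.

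KRT8, the type II component of the simple epithelial filament, read 10.88, 11.06 and 10.92 on the scramble arrays and 10.68, 10.75 and 10.51 on the LSD2 shRNA arrays (log2 signal). It read 11.51, 11.60 and 11.75 on the eGFP/Flag arrays and 8.87, 8.44 and 8.86 on the LSD2/eGFP/Flag arrays. The groups did not overlap in either comparison, narrowly with the shRNA and widely with the vector. KRT8 lay between percentiles 92.1 and 94.8 on the 9 other arrays and between 63.5 and 68.4 on the LSD2/eGFP/Flag arrays.

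KRT18, its obligate type I partner, read 12.77, 12.66 and 12.72 with the scramble shRNA and 12.49, 12.45 and 12.46 with the LSD2 shRNA. It read 12.50, 12.58 and 12.48 with the eGFP/Flag vector and 10.69, 10.57 and 10.83 with the LSD2/eGFP/Flag vector. Again the arrays of the compared groups did not overlap. KRT18 stayed at percentiles 85.9 to 88.1 on the LSD2/eGFP/Flag arrays, so it remained a bright probe set there, against 97.0 to 97.2 on the eGFP/Flag arrays. The probe sets of KRT8 and KRT18 carry the suffix _x_at, with which Affymetrix marks probes that may also match other transcripts, and both genes have many processed pseudogenes, so part of their signal may come from other sequences.

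KRT7, the type II keratin of ducts, was bright on 9 arrays. By its brighter probe set it read 11.13, 11.21 and 11.24 with the scramble shRNA, 11.15, 11.13 and 11.13 with the LSD2 shRNA and 12.02, 12.28 and 11.49 with the eGFP/Flag vector. With the LSD2/eGFP/Flag vector it read 4.96, 4.76 and 4.59, at percentiles 14.4 to 20.3 of the array. The scramble and LSD2 shRNA arrays overlapped, and no array of the vector groups came near the other group. The eGFP/Flag arrays spread more (SD 0.40, n = 3) than the scramble arrays (SD 0.06), with replicate 3 the lowest.

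The second KRT7 probe set lay between percentiles 11.3 and 50.2 of the arrays and moved the same way in the vector comparison. It read 5.26, 5.28 and 5.47 with the scramble shRNA and 5.68, 5.16 and 5.41 with the LSD2 shRNA. It read 6.86, 7.05 and 6.05 with the eGFP/Flag vector and 4.37, 4.57 and 4.50 with the LSD2/eGFP/Flag vector. Replicate 3 was the lowest eGFP/Flag array on this probe set too.

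KRT19, a type I keratin of ducts and carcinomas that lacks the tail domain of other keratins, varied most among replicates. It read 9.37, 9.59 and 8.92 with the scramble shRNA and 9.59, 9.84 and 8.84 with the LSD2 shRNA, so the groups overlapped. With the eGFP/Flag vector it read 9.69, 9.52 and 10.47, and with the LSD2/eGFP/Flag vector 4.72, 4.73 and 4.56, at percentiles 14.1 to 16.7. Its SD was 0.34, 0.52 and 0.50 in the first 3 groups, the largest of the 8 keratins in each. On eGFP/Flag replicate 3 KRT19 was at its highest of that group while KRT7 was at its lowest.

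**Figure D1:**
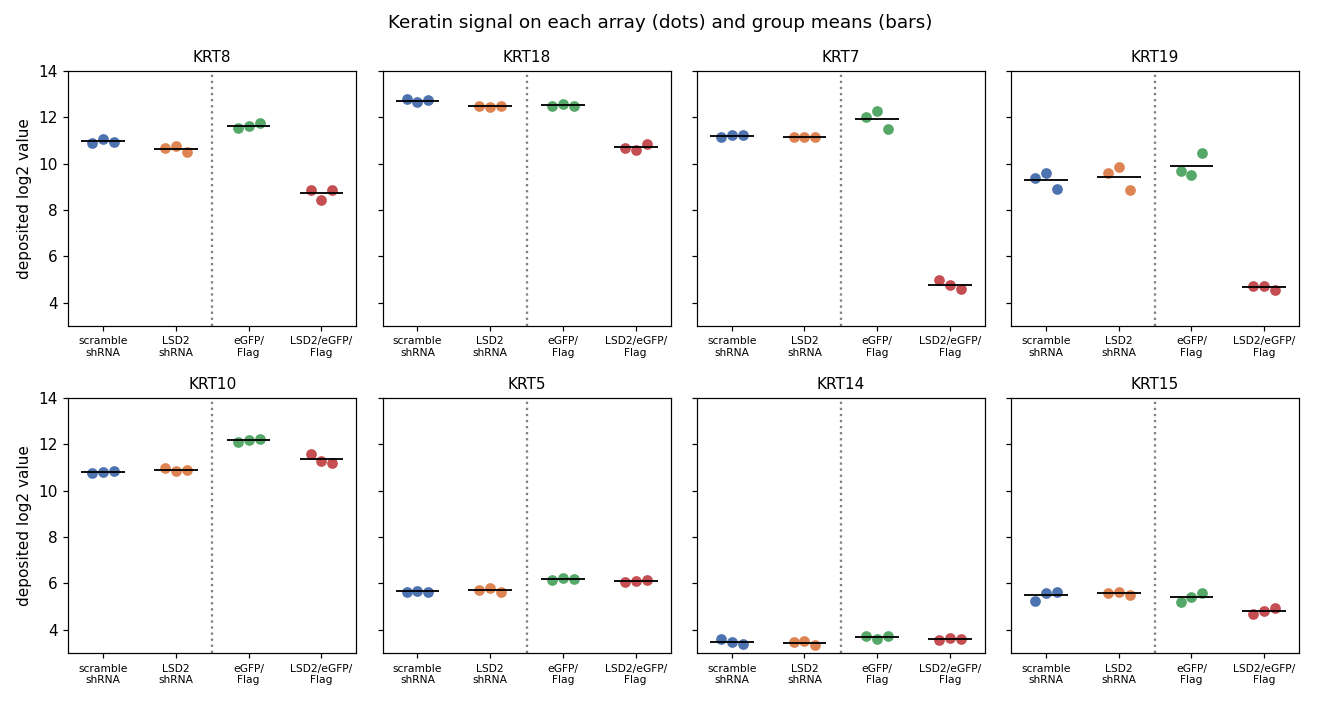
Deposited log2 signal (y axis) of the 8 measured keratins by their brightest probe set on each of 12 arrays (dots, 3 per group) with group means (bars); a dotted line parts the shRNA arrays from the vector arrays, which were treated as normalized separately. KRT7 and KRT19 drop to 4.56 to 4.96 on the LSD2/eGFP/Flag arrays, while KRT18 stays above 10.5 there.

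KRT10, best known from differentiated epidermis and also read at high signal here, was measured by 3 probe sets. By the brightest it read 10.75, 10.83 and 10.86 with the scramble shRNA, a mean of 10.91 ± 0.08 (SD, n = 3) with a lowest value of 10.86 for the LSD2 shRNA, 12.12, 12.18 and 12.25 with the eGFP/Flag vector and 11.59, 11.27 and 11.21 with the LSD2/eGFP/Flag vector. The shRNA groups overlapped and the vector groups did not. It lay at percentiles 91.1 to 93.4 on the LSD2/eGFP/Flag arrays and 95.7 to 96.2 on the eGFP/Flag arrays. The 3 KRT10 probe sets agreed in direction in both comparisons. The brightest and 1 other carry the suffix _x_at too, so the same limit holds for their signal.

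The basal keratins were low on every array. KRT5, the type II keratin of basal cells, ranged from 5.64 to 5.79 on the shRNA arrays and from 6.06 to 6.22 on the vector arrays, at percentiles 33.2 to 39.8. KRT14, its type I partner, ranged from 3.35 to 3.62 and from 3.57 to 3.73, never above percentile 8.8. KRT15, a type I keratin of basal cells and of hair follicle stem cells, read 5.26, 5.58 and 5.64 with the scramble shRNA, 5.61, 5.63 and 5.50 with the LSD2 shRNA, 5.21, 5.42 and 5.57 with the eGFP/Flag vector and 4.70, 4.83 and 4.93 with the LSD2/eGFP/Flag vector. Of these 3, KRT15 alone passed a test below, with the vector, and its LSD2/eGFP/Flag arrays lay at percentiles 16.2 to 19.6, where RMA values have no reliable order.

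**Figure D2:**
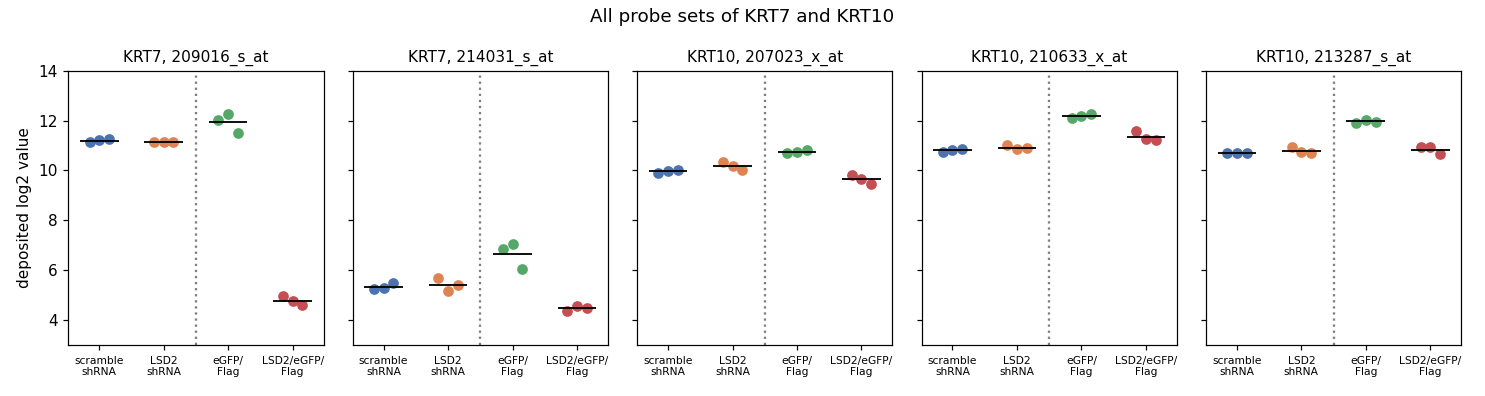
Deposited log2 signal (y axis) of both KRT7 probe sets and the 3 KRT10 probe sets on each array (dots, 3 per group) with group means (bars). Every probe set is lower on all LSD2/eGFP/Flag arrays than on any eGFP/Flag array, and the dimmer KRT7 probe set covers a smaller range than the brighter.

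The first comparison asks whether these keratins change when LSD2 is targeted by an shRNA. None of the 8 genes passed the test (limma, Benjamini-Hochberg adjusted p under 0.05), 0 higher and 0 lower, and 2, KRT8 and KRT18, had an unadjusted p under 0.05. Over all genes 10.5% were called, 5.53% lower and 5.0% higher. By probe set 0 of 11 were called, beside 8.73% of all probe sets, 4.79% lower and 3.93% higher. The groups did not overlap for 2 of the 8 keratins, against 28.3% of all genes. The median difference of the 8 was 0.01 log2 units, beside -0.005 over all genes.

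The largest differences were those of the KRT8 and KRT18 pair, both negative. KRT18 was at -0.25 ± 0.07 log2 units (SE; 95% interval -0.40 to -0.09), from a mean of 12.71 ± 0.06 to 12.47 ± 0.02 (SD, n = 3), with limma's adjusted p = 0.0512. This lies just outside the threshold, and 6 alternatives put it inside. The adjusted p of KRT18 was 0.0310 after cyclic loess, 0.0448 without dim genes, 0.0185 with an intensity trend, 0.00587 with array weights, 0.0437 with the mean of all probe sets and 0.0382 in a limma fit on the compared groups alone. It was 0.0762 to 0.179 when 1 array was left out, and its range over all alternatives was 0.00587 to 0.179. KRT8 was at -0.30 ± 0.12 (interval -0.56 to -0.05, limma adjusted p = 0.130), and no alternative called it.

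The other 6 keratins lay closer to 0. KRT19 was at 0.13 ± 0.27, with an interval of -0.44 to 0.70 that leaves room for a change of either sign. KRT7 was at -0.06 ± 0.15 (-0.39 to 0.28), KRT10 at 0.10 ± 0.09 (-0.11 to 0.30) and KRT15 at 0.09 ± 0.11 (-0.16 to 0.33). KRT5 was at 0.07 ± 0.06 (-0.07 to 0.21) and KRT14 at -0.04 ± 0.08 (-0.21 to 0.13), both low on the array. Limma's adjusted p of these 6 ranged from 0.627 for KRT10 to 0.891 for KRT7.

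The second comparison, meant to show the effect of an LSD2 vector, sets the arrays labelled LSD2/eGFP/Flag against the eGFP/Flag arrays, which may also differ as lines. All 8 differences were negative. KRT7, KRT19, KRT8, KRT18, KRT10 and KRT15 fell, 0 rose, and KRT5 and KRT14 did not pass the test. In this comparison 57.0% of all genes were called, 26.1% lower and 30.9% higher. The groups did not overlap for 7 of the 8 keratins, beside 61.1% of all genes, and KRT5 was among the 7. The median difference of the 8 keratins was -1.33 log2 units, beside 0.01 over all genes.

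The sizes of these falls were graded. KRT7 fell by 7.16 ± 0.15 log2 units (adjusted p = 1.8e-13, limma), the 14th lowest difference of 11963 genes, and KRT19 fell by 5.22 ± 0.27 (1.2e-09), the 60th lowest. Both ended low on the array, where RMA values have no reliable order, so the sizes of these falls are less certain than their direction. KRT8 fell by 2.90 ± 0.12 (interval -3.15 to -2.65, limma adjusted p = 1.1e-10) and KRT18 fell by 1.83 ± 0.07 (-1.99 to -1.67, 1.1e-10). KRT10 fell by 0.83 ± 0.09 (4.0e-06), and its other probe sets fell by 1.14 and 1.10. KRT15 fell by 0.58 ± 0.11 (0.000515), between values low on the array.

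Probe sets of KRT7 agreed in direction and differed in size. The dimmer fell by 2.17 ± 0.20 (limma adjusted p = 6.2e-07), and with the mean of all probe sets KRT7 fell by 4.67. By probe set, 9 of 11 keratin probe sets fell and 0 rose, where 54.6% of all probe sets were called, 26.1% lower and 28.5% higher. KRT5 was at -0.08 ± 0.06 (interval -0.22 to 0.06, limma adjusted p = 0.303) and KRT14 at -0.08 ± 0.08 (-0.25 to 0.09, 0.413). The arrays of this comparison are those on which the 12 breast line genes fell together, from a mean log2 signal of at least 12.13 to at most 7.03. The part of that shift in the keratin values was not tested.

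**Figure D3:**
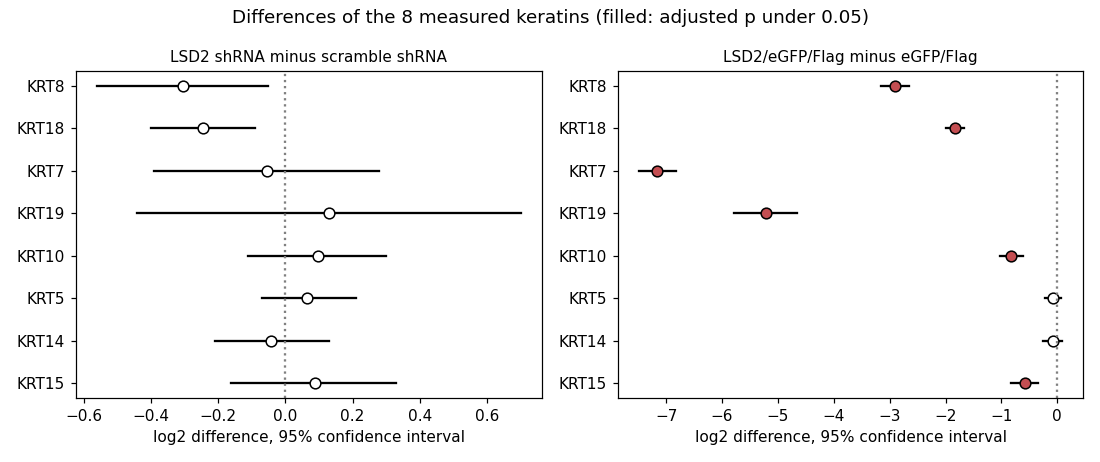
Log2 differences (x axis) of the 8 measured keratins in both comparisons, with 95% confidence intervals from limma; filled points passed an adjusted p of 0.05, and the x axes differ in range. All intervals of the shRNA comparison lie between -0.56 and 0.70, while KRT7 reaches -7.16 in the vector comparison.

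The 2 effects were compared in 1 fit, as the vector difference minus the shRNA difference. They come from sets of arrays treated as normalized separately, so their scales may not be the same. This contrast called 6 of the 8 keratins, all lower with the vector, and 50.4% of all genes (22.4% lower and 28.0% higher). By probe set it called 9 of 11, all lower, beside 47.1% of all probe sets (21.6% lower and 25.5% higher). The values were -7.11 ± 0.22 for KRT7, -5.35 ± 0.38 for KRT19, -2.60 ± 0.17 for KRT8, -1.58 ± 0.10 for KRT18, -0.92 ± 0.13 for KRT10 and -0.67 ± 0.16 for KRT15, with limma's adjusted p at most 0.00306. KRT5 (-0.15 ± 0.09) and KRT14 (-0.04 ± 0.11) did not pass, at 0.199 and 0.803. KRT7, KRT8, KRT14 and KRT18 had negative differences in both comparisons, of which none was called with the shRNA.

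The balance of partners was followed as a difference of log2 signals, given as a description. The log2 signal of KRT8 minus that of KRT18 on the same array went from -0.90 ± 0.15 on the eGFP/Flag arrays to -1.97 ± 0.16 on the LSD2/eGFP/Flag arrays (SD, n = 3), a change of -1.07. The arrays ranged from -0.99 to -0.73 and from -2.14 to -1.81 and did not overlap. The two-sided exact permutation test gave p = 0.10, the smallest that 3 against 3 arrays allow. In the shRNA comparison the same difference changed by -0.06 (exact permutation p = 0.60). KRT7 minus KRT19 changed by -1.94 with the vector (exact permutation p = 0.10), from 1.03 to 2.75 down to 0.02 to 0.24, but both genes ended low on the array, where this difference has no reliable size. KRT5 minus KRT14 was 2.51 in both vector groups, with both genes low throughout. These 3 pairs and 2 comparisons gave 6 tests, none of which could pass a threshold of 0.05, and the Benjamini-Hochberg adjusted p of both changes at the smallest p was 0.30. A change in such a difference shows unequal change of the signals, not of protein.

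The other 24 measured keratins, hair, corneal, epidermal and intestinal types among them, were low on every array, between percentiles 0.5 and 50.9. In the shRNA comparison 0 of the 24 were called by limma and 1, KRT38 (0.20 ± 0.07), had an unadjusted p under 0.05. In the vector comparison KRT37 fell by 0.29 ± 0.09 and KRT32 fell by 0.25 ± 0.09, both hair keratins, and the corneal keratin KRT3 rose by 0.29 ± 0.09, with limma's adjusted p of 0.0126, 0.0300 and 0.0147. The remaining 21 were not called, and all 24 differences lay between -0.29 and 0.29. Over all genes 57.0% were called with the vector and 10.5% with the shRNA. The median of the 24 was -0.05 log2 units, beside -1.33 for the 8 listed keratins. Signals as low as those of the 24 leave little room for a fall, so these medians are not like for like. KRT3 was thus the 1 keratin of the 32 called higher on the arrays where KRT7 and KRT19 were low, and it lay at percentiles 22.9 to 25.3 there.

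**Figure D4:**
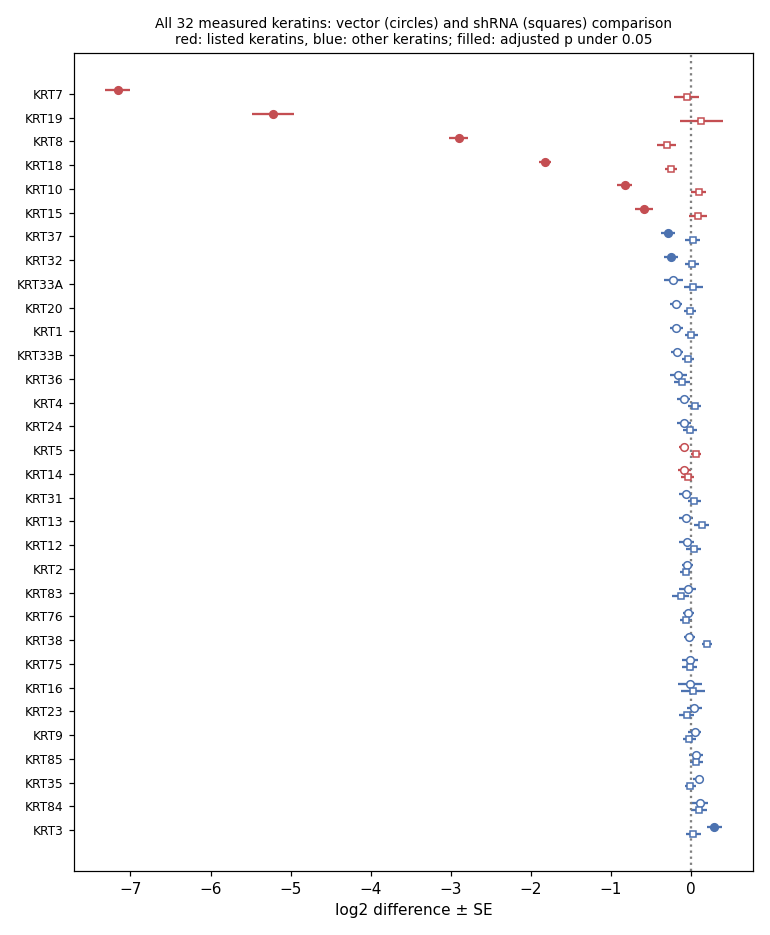
Log2 differences ± SE (x axis) of all 32 measured keratins in the vector comparison (circles) and the shRNA comparison (squares), ordered by the vector difference; red marks the 8 listed keratins, blue the other 24, and filled points passed an adjusted p of 0.05. Apart from the 6 listed keratins that fell, all circles lie between -0.29 and 0.29.

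Genes next to each other in the keratin clusters fell in some cases and did not pass the test in others. In the order of the gene table, KRT15 and KRT19 are next to each other among the measured genes of the type I cluster, between KRT13 and KRT9, and neither of these passed the test with the vector (KRT13 at -0.06 ± 0.09, KRT9 at 0.05 ± 0.09). KRT8 and KRT18 are neighbours at the end of the type II cluster and KRT7 lies at the other end, with 10 measured keratins between, KRT5 among them. Of those 10, only KRT3 was called, higher. Of the 19 measured keratins of the type I cluster 5 fell with the vector, KRT10, KRT15 and KRT19 and the hair keratins KRT37 and KRT32, and 0 rose, and 1 of the 4 measured genes of other kinds between them fell. These shares called lower are near the 26.1% of all genes, of which 30.9% were called higher. Of 30 measured genes flanking the type I cluster, 15 rose and 7 fell with the vector, among them JUP, the desmosomal plakoglobin, which rose by 1.85 ± 0.38. IGFBP4, an insulin-like growth factor binding protein, fell by 5.10 ± 0.18. Of 30 flanking the type II cluster, 9 rose and 10 fell, among them IGFBP6 (fell by 2.22) and the epithelial membrane protein SMAGP (fell by 1.66). Of 700 measured genes of chromosome 17, 231 rose and 168 fell with the vector. On chromosome 12, 153 of 674 rose and 216 fell.

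With the shRNA, 1 of the 30 genes flanking the type I cluster fell, CNP by 0.28 ± 0.07, and 0 rose, although 115 of 700 measured genes of chromosome 17 fell and 12 rose. Of the 30 flanking the type II cluster, SMAGP (0.70 ± 0.08) and DAZAP2 (0.27 ± 0.07) rose and 0 fell, on a chromosome 12 where 61 of 674 rose and 6 fell. KRT8 and KRT18, on chromosome 12 too, had negative differences that did not pass the test. The shares over all genes with the shRNA were 5.53% called lower and 5.0% called higher.

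Among the genes that hold the keratin filament at the membrane some fell and some rose, as among all genes. Of 19 measured genes that anchor keratin filaments in desmosomes and hemidesmosomes, 7 fell and 5 rose with the vector, with a median of -0.03. In that comparison 26.1% of all genes were called lower and 30.9% higher. The laminin receptor subunit ITGA6 fell by 2.52 ± 0.13, the desmosomal plaque protein PKP3 fell by 1.94 ± 0.09 (-0.75 with its other probe set), and the desmosomal cadherin DSC3 rose by 3.97 ± 0.11. With the shRNA 2 fell, PKP3 by 0.69 ± 0.09 and PKP4 by 0.39 ± 0.11, and PERP rose by 0.43 ± 0.12, of 19. There 5.53% of all genes were called lower and 5.0% higher.

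Of 15 measured intermediate filament genes other than keratins, 5 rose and 4 fell with the vector, shares near the 30.9% and 26.1% of all genes. The neurofilament NEFM rose by 6.74 ± 0.14, from 4.58 ± 0.06 to 11.32 ± 0.36, NEFL rose by 3.25 ± 0.11 (its other probe sets by 6.19 and 7.73) and the neuronal filament INA rose by 3.08 ± 0.12, while VIM, the filament of mesenchymal cells, fell by 1.45 ± 0.08. The median of the list was 0.08. The same arrays had 5 of 11 neural markers higher and 2 lower, a list that holds NEFL and NEFM too, with a mean log2 signal of 6.80 to 6.89 against 5.81 to 5.90 on the eGFP/Flag arrays. NEFM and NEFL had the largest differences of that list, whose median difference was 0.06, so its mean signal is no separate result. The part of these markers in the keratin values was not tested. With the shRNA, NES (fell by 0.66 ± 0.19) and SYNM (fell by 0.37 ± 0.10) were lower and 0 of the 15 were higher, where 5.53% of all genes were called lower and 5.0% higher.

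Among 6 measured genes whose products bind, fold or turn over keratins, 3 fell and 2 rose with the vector. Over all genes 26.1% were called lower and 30.9% higher there, and 5.53% and 5.0% with the shRNA. The 14-3-3 protein SFN fell by 2.96 ± 0.08 (-5.11 to -2.49 with its other probe sets). The chaperone DNAJB6, a partner of the KRT8 and KRT18 filament, fell by 1.63 ± 0.09, and the keratin-binding plakin EPPK1 rose by 2.07 ± 0.09. With the shRNA 1 of 6 was called, PNN, which fell by 0.35 ± 0.09 (-0.05 to 0.13 with its other probe sets). The list's median was -0.41 with the vector and -0.07 with the shRNA.

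Transcription factors known to act on epithelial genes were called in both directions, as all genes were. With the vector 30.9% of all genes were called higher and 26.1% lower, and with the shRNA 5.0% and 5.53%. Of 14 measured epithelial factors, 4 rose and 2 fell with the vector, with TFAP2A, an activator of keratin promoters, at 4.57 ± 0.07 (0.09 and 1.07 with other probe sets), GATA3 at 2.00 ± 0.11 and KLF4, which fell by 2.05 ± 0.16 (-1.20 with its other probe set). With the shRNA KLF4 (1.05 ± 0.16) and FOXA1 (0.74 ± 0.13) rose and 2 fell, TFAP2C by 0.69 ± 0.14. Of 5 measured repressors of epithelial genes, TWIST1 (5.74 ± 0.16), SNAI2 (0.99 ± 0.18) and 1 other rose with the vector and ZEB1 fell by 1.08 ± 0.10, while with the shRNA ZEB1 rose by 0.37 ± 0.10 (-0.03 to 0.31 with its other probe sets) and 0 fell. Of 16 measured cornified envelope and squamous differentiation genes, KLK7 rose by 1.47 ± 0.13 and KLK5 fell by 0.18 ± 0.07 with the vector. The other 14 were not called. SPRR3 alone of the 16 was called with the shRNA, at 0.34 ± 0.10. The limma adjusted p of the genes named from these lists was at most 0.0454.

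**Figure D5:**
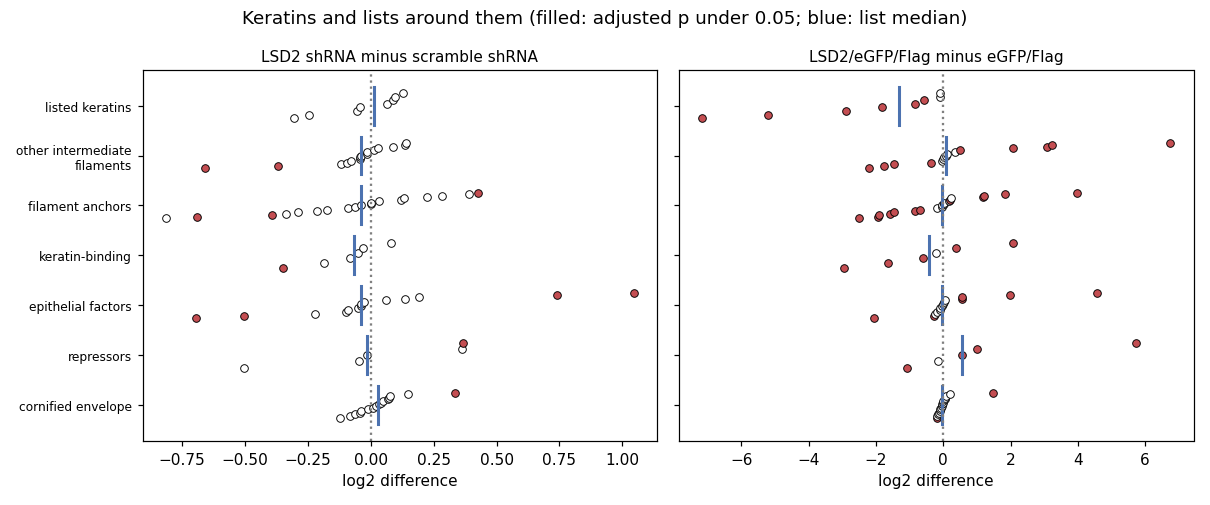
Log2 difference (x axis) of each measured gene of the listed keratins and of 6 lists around them in both comparisons; filled points passed an adjusted p of 0.05, blue bars are list medians, and the x axes differ in range. In the vector comparison the keratin median is -1.33, and the medians of the other lists drawn lie between -0.41 and 0.54. The 12 genes high in mesenchymal-like breast lines, not drawn, had a median of -5.23 there.

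Other lineage markers were compared on the same arrays. Of 12 measured luminal markers 3 rose and 3 fell with the vector, of 10 basal markers other than keratins 2 rose and 4 fell, of 6 blood cell markers 0 were called, and of 10 fibroblast and endothelial markers 3 rose and 1 fell. In that comparison 30.9% of all genes were called higher and 26.1% lower. Differences ranged from -4.76 to 2.11 for the luminal markers and from -5.73 to 0.60 for the basal markers. The epithelial cadherin CDH1 was at percentile 5.8 with the eGFP/Flag vector and 5.9 with the LSD2/eGFP/Flag vector, so the bright simple keratins of the first occurred with a low CDH1 signal. EPCAM, another epithelial surface protein, went from percentile 52.7 to 17.2 and fell by 2.58 ± 0.13. The blood marker PTPRC lay at percentiles 9.0 and 6.4.

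The genes whose 12 log2 values, centred on the mean of the shRNA or the vector arrays, lay nearest to those of a keratin were named for the 4 simple keratins, with the Euclidean distance over 12 arrays. They were the matrix protein THBS1 (0.84), the receptor kinase AXL (0.88) and CLEC2B (0.90) for KRT7, and CTBS (0.34), ADGRG1 (0.36) and RAB27A (0.41) for KRT8. For KRT18 they were FXYD5 (0.26), TRIM14 (0.28) and TCIRG1 (0.28), and for KRT19 SQOR (0.58), ACOX2 (0.71) and MBP (0.78). These distances describe the arrays and carry no test.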

How the data were processed

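The deposited log2 values were made by the authors with RMA, per the submitters' processing notes. The software and its version are not named in these sources. Of 22277 probe sets, 62 were controls and 19064 named 1 gene in the platform annotation, and 1043 named several. Symbols were updated through gene identifiers for 19052. The gene table (GRCh38.p14) served for names and gene order. For a gene with several probe sets the brightest over 12 arrays was taken (11963 genes).

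Groups were fitted as means over all 12 arrays with limma 3.58.1 (R 4.3.3), by lmFit and eBayes, two-sided, on 8 residual degrees of freedom plus a prior of 4.82, with Benjamini-Hochberg adjustment over all genes or probe sets and a threshold of 0.05. The procedure was tested on simulated data. The keratins and lists were chosen with earlier results of these data known. Named were all listed keratins, up to 3 called genes per list and comparison with the largest differences, up to 2 per flank, and the 3 nearest profiles of each of 4 keratins. CDH1, EPCAM, PTPRC, VIM, KRT13, KRT9, KRT38, CD44, ANXA1 and AXL among the markers and neighbours were named after their values were seen. Alternatives were a replicate block, cyclic loess, equal medians, no dim genes (below percentile 30 on all arrays), an intensity trend, array weights, the mean of probe sets, the compared groups alone and leaving out each array.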

Additional observations from a re-analysis of the deposited data

How the results depend on the processing

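In the vector comparison and in the contrast of both effects, 6 keratin genes and 9 keratin probe sets were called lower under every alternative and without any 1 array. The main fit called 57.0% of all genes with the vector and 50.4% in the contrast. Under the same alternatives 6411 to 6963 genes were called with the vector and 5681 to 6320 in the contrast. In the shRNA comparison the count of called keratin genes was 0 and became 1 (KRT18, lower) after cyclic loess, without dim genes, with an intensity trend, with array weights, with the mean of all probe sets and when only the 2 compared groups were fitted. The count of keratin probe sets was 0 and became 1 after cyclic loess, with the trend, with array weights and in the compared groups alone, and both counts stayed at 0 without any 1 array. Over all genes the shRNA count was 1260, 2350 with array weights, and 752 to 1022 without 1 array (752 without scramble replicate 1, 774 when LSD2 shRNA replicate 1 was left out and 832 when scramble replicate 2 was). The cause of these changes was not tested, except that a left-out array leaves fewer samples. Signs turned only for differences that were never called: KRT7 with the shRNA was 0.012 with the mean of all probe sets, KRT14 in the contrast of both effects was 0.015 with array weights, and without 1 array the shRNA difference ranged from -0.101 to 0.023 for KRT14, from -0.028 to 0.159 for KRT15 and from -0.079 to 0.421 for KRT19, and the contrast of KRT14 from -0.105 to 0.019.

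Same-numbered replicates did not deviate together in every pair. Their r was 0.02, 0.508 and 0.446 for the shRNA groups, and -0.142, 0.175 and 0.182 for the vector groups. Arrays of different numbers gave r of -0.482 to 0.072 and of -0.243 to 0.101. Scramble and LSD2 shRNA arrays of replicates 2 and 3 thus deviated together by number, and those of replicate 1 did not. The numbers were not taken as a pairing in the main fit, and a replicate block was an alternative. With the replicate block 1640 genes were called with the shRNA and 6963 with the vector, 0 and 6 keratins among them, and the adjusted p of KRT18 with the shRNA was 0.074 (limma). The block changed no keratin call. Low signal on the arrays limits what can be said of KRT5, KRT14 and KRT15, and of KRT7 and KRT19 on the LSD2/eGFP/Flag arrays.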
